A study of Mus musculus with 4 samples.

Results

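Sense-intronic transcripts are non-coding transcript models that the gene annotation places inside an intron of another gene, on the same strand as that gene. The 238 models described here are all entries on chromosomes 1 to 19 whose annotated class was sense_intronic, among the 21462 genes of the expression table, and they were chosen by annotation alone and not by level. They were measured in smooth muscle cells from mouse lung, in 2 control and 2 Tet3 mutant libraries of strain C57BL/6. The mutants carried Tet3 fl/fl alleles, an inducible α-SMA ERT2Cre transgene and a ROSA26 tdTomato reporter. Tamoxifen given to adult mice thus inactivated Tet3 in cells that use the α-SMA promoter. The study describes its controls as lacking the floxed allele and carrying the Cre transgene and/or the reporter. Lungs were digested, CD45 and Ter119 positive cells were depleted, and live tdTomato positive cells were sorted. The labels name genotype, strain, tissue and cell type but no age or batch for single libraries. The study describes its replicates as independent animals.

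RNA polymerase II transcribes introns together with exons, and the intron is normally cut out by splicing and degraded within the nucleus. RNA seen inside an intron on the sense strand can therefore come from a start site of its own or from host RNA that has not been spliced or degraded, and a read within a sense-intronic model does not tell these apart. TET3 oxidizes methylated cytosine to 5-hydroxymethylcytosine, a mark that lies over the bodies of transcribed genes, and the study asked whether its loss allows transcription to begin inside genes. The sense-intronic models are annotated RNAs at such internal positions.

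Of the 238 models, 237 lay within a host gene on the same strand, and Gm48617 had none. The hosts numbered 197, and 230 models had a protein-coding host. A single exon made up 118 models, 99 had 2 exons and 21 had more. The median model spanned 2158 bases, in an intron with a median length of 31212 bases, and began a median of 37431 bases downstream of its host's annotated start. The first intron of the host held 87 models. Exons of another gene overlapped 21 models, 6 on the same strand and 15 on the opposite strand, and since it is not stated whether strand was used in counting, the values of those on opposite strands are uncertain. The models were unevenly spread over the genome. Chromosome 3 held 55 of them, or 23.1%, against 5.60% of the genes of the table on numbered chromosomes, and chromosome 5 held 31, or 13.0% against 7.29%. In 20 hosts there was more than 1 model, and these hosts together held 60 models.

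The sequences at the annotated starts set these models apart from their hosts. Among 237 models with an annotated transcript, the first 100 bases held a mean of 1.26 CpG dinucleotides, and 42.2% of the models had none. The first 100 bases of 193 host transcripts held a mean of 8.81, and 4.66% had none. At least 5 CpG were found in 4.64% of models and in 71.5% of hosts. Only 11 models had a promoter listed by RefSeq within 50 bases of the annotated start. Whether transcription begins at the annotated starts of the other models was not tested. The starts below are the first 80 bases of the 7 models with the smallest p between genotypes, described further on, with each CpG in capitals, and they show how sparse the dinucleotide was.
Gm43707 (Hs2st1, chr3:144497093-144497172, minus strand): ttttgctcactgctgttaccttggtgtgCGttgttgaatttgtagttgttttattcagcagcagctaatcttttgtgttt
9530097N15Rik (Magi3, chr3:104079423-104079502, minus strand): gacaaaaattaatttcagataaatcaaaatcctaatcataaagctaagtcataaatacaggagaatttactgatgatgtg
B930095G15Rik (Farp1, chr14:121248706-121248785, plus strand): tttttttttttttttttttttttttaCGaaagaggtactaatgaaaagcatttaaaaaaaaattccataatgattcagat
Gm43256 (Magi3, chr3:104190114-104190193, minus strand): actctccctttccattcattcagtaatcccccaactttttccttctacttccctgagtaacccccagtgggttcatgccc
Gm43258 (Magi3, chr3:104151626-104151705, minus strand): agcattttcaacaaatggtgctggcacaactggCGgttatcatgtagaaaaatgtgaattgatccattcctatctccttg
Gm26978 (Rbpms, chr8:33885668-33885747, minus strand): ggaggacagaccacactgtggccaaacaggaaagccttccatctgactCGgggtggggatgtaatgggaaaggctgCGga
Gm48086 (Eif4ebp2, chr10:61450638-61450717, minus strand): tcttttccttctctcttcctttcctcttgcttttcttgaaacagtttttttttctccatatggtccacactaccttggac
These 7 starts held 0 to 2 CpG each in their first 100 bases, and B930095G15Rik opened with an unbroken run of T.

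**Figure D1:**
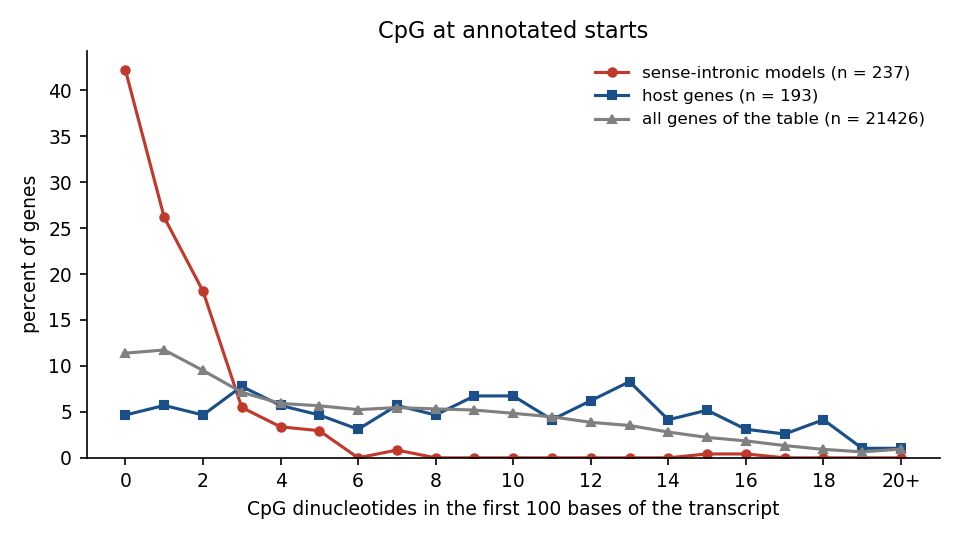
Percent of genes (vertical axis) by the number of CpG dinucleotides in the first 100 bases of the annotated transcript (horizontal axis, 20 or more pooled) for the sense-intronic models, their host genes and all genes of the table. The models pile up at the low end, with 42.2% at 0, whereas the hosts are spread widely, with 4.66% at 0.

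The exceptions were the most CpG-rich starts, shown next to the most abundant model, Peg13, a paternally expressed imprinted RNA. Gm43017 began 204 bases downstream of the start of Fam133b and had 16 CpG in its first 100 bases, and Gm43566, inside the splicing kinase gene Srpk2, had 15.
Gm43017 (Fam133b, chr5:3544037-3544116, plus strand): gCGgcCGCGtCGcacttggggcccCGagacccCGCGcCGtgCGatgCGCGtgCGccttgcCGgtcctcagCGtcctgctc
Gm43566 (Srpk2, chr5:23675467-23675546, minus strand): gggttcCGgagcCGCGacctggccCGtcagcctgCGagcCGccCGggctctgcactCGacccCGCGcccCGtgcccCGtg
Peg13 (Trappc9, chr15:72810245-72810324, minus strand): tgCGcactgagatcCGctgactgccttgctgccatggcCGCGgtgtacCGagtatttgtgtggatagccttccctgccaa
Peg13 had 5 CpG in its first 100 bases. Gm43017 was listed at 3 and 5 normalized counts in the 2 control libraries and at 7 and 10 in the 2 mutant libraries. Gm43566 had 8 and 5 in the controls and 2 and 3 in the mutants. These 2 CpG-rich starts thus lay in opposite order between genotypes, at levels too low to be tested.

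CpG-containing motifs were correspondingly rare. The hexamer GGGCGG, a core of the sites bound by Sp family factors, occurred on either strand in the first 100 bases of 1.27% of models, 24.4% of hosts and 17.1% of all genes of the table. The hexamer CCGGAA, a core of Ets family sites, occurred in 0.844% of models, 7.25% of hosts and 6.60% of all genes. The polyadenylation signal AATAAA, searched on the sense strand in the last 100 bases, was present in 26.2% of models, 59.6% of hosts and 51.7% of all genes. These low shares were not particular to the sense-intronic models. In TEC models, a class described further on, GGGCGG occurred in 2.38%, CCGGAA in 1.09% and AATAAA in 24.4%. The last 60 bases of 4 models illustrate ends with the signal, in capitals, and ends without it.
B930095G15Rik end: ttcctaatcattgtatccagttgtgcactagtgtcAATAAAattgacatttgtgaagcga
Peg13 end: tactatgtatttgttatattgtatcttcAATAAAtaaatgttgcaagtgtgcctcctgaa
Gm43707 end: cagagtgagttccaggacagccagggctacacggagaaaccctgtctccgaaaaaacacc
Gm48086 end: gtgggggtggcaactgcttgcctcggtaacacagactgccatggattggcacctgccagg
The signal was present in the first pair and absent from the second.

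Levels were normalized counts, that is, reads per gene that the authors scaled between libraries and rounded. The targeted gene gave only a weak check of the labels. Tet3 stood at 1847 and 1926 in the controls and 1534 and 1444 in the mutants, a log2 fold change of -0.34 (limma, adjusted p = 0.681, unadjusted p = 0.0184). Most Tet3 RNA thus remained in the mutants. Both mutant values lay below both control values, as they did in 19.5% of all genes tested. The totals ran from 6805272 to 7164573 per library, and the reads assigned to genes were estimated at 6.32 M to 7.56 M. The summed smooth muscle markers were 10762 and 11305 in the controls and 12895 and 11870 in the mutants, and all 10 were detected. Markers of other lung cells were present too, with summed alveolar type 2 markers of 14192 and 21070 in the controls and 10175 and 12833 in the mutants, and summed macrophage markers of 6623 and 5935 against 7206 and 8133. Summed ciliated cell markers were 2415 and 2653 against 4569 and 3093, and summed neutrophil markers 687 and 520 against 1346 and 790. The 6 fibroblast markers summed to 19051 and 16431 in the controls and to 20774 and 18086 in the mutants. The 6 endothelial markers summed to 12599 and 12256 against 13519 and 13025. Both sums exceeded that of the smooth muscle markers in every library, although the lists hold different genes. T cell markers were detected as well. Control replicate 2 stood apart in T cell markers, which summed to 228 there and to 790, 846 and 877 in control replicate 1 and the mutants. The part of these cells in the results was not tested, and in sorted bulk cells fewer cells of a type and less RNA per cell cannot be told apart.

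Most sense-intronic models were expressed at low levels. A value above 0 was listed in all 4 libraries for 226 of 238 models, but the median of the mean levels was 12.9 normalized counts, and 5 models reached 100. Per kilobase of exon, a model stood at a median of 14.5% of its host. Peg13 (chromosome 15, 72805600 to 72810324), in intron 16 of the trafficking gene Trappc9, was by far the most abundant, with 1268 and 1201 normalized counts in the controls and 1167 and 1123 in the mutants. These values corresponded to 276.6% of the level of Trappc9 per kilobase. Its log2 fold change was -0.11 ± 0.10 (SE; limma, unadjusted p = 0.331), and its groups did not overlap. Gm10855 in Celf2, a gene for a splicing regulator, had 165 and 84 in the controls and 158 and 109 in the mutants. Gm42664 in Ptbp2, another splicing regulator gene, had 116 and 84 against 129 and 73. Both of these models overlapped between genotypes, as did Gm43445 in Lmo4 and Gm43328. Gm47644 in Cep85l overlapped between genotypes too, and its values are uncertain because an exon of Pln lies over it on the opposite strand. By contrast, Gm38190, in the first intron of Tiprl, had 104 and 84 in the controls and 68 and 70 in the mutants, and Gm17491, in the first intron of the phosphate transporter gene Slc20a2, had 94 and 89 against 75 and 61. Both had a log2 fold change of -0.43 ± 0.25 (SE), with unadjusted limma p-values of 0.139 and 0.143. Gm33248, in the non-coding gene Gm39094, had 145 and 424 in the controls and 50 and 132 in the mutants, with control replicate 2 far above the rest. Its host showed the same library at 92 normalized counts, against 8, 4 and 4 in control replicate 1 and the mutants.

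The comparison of Tet3 mutant with control cells asked whether RNA at these intronic positions was higher or lower in the mutants. No model passed the adjusted threshold, and the models as a group were lower in the mutants. Fold changes were taken on log2(value + 1), which understates the change of low values, and tested with limma for the 148 models with a mean of at least 10 normalized counts. The adjusted p was under 0.05 for 0 of 148 models, as for 0% of the 16659 genes tested, with a smallest adjusted p of 0.681. An unadjusted p under 0.05 was found for 7 models, or 4.73%, against 6.68% of all genes. All 7 were lower in the mutants, where 2.85% of all genes met this threshold, and 0 were higher, where 3.83% of all genes did. The log2 fold change was below 0 in 124 models, or 83.8%, against 51% of all genes. Both mutant values lay below both control values in 53 models, or 35.8% against 19.5%, and above them in 2 models, or 1.35% against 19.6%. The median log2 fold change was -0.39, with quartiles of -0.63 and -0.13 and a range from -2.4 to 0.88, whereas the median over all genes was -0.01.

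The lower level was mainly a property of 1 library. Relative to each model's own mean over the 4 libraries, the median model stood at 0.22 and 0.14 on the log2 scale in control replicates 1 and 2, at 0.04 in Tet3 mutant replicate 1 and at -0.41 in Tet3 mutant replicate 2. Tet3 mutant replicate 2 was the lowest of the 4 libraries in 91 models, or 61.5%, against 20.8% of all genes. Without it the median log2 fold change was -0.14, against -0.01 over all genes, with 92 of 148 models below 0. Without Tet3 mutant replicate 1 it was -0.61, and without control replicate 1 or 2 it was -0.34 or -0.40.

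**Figure D2:**
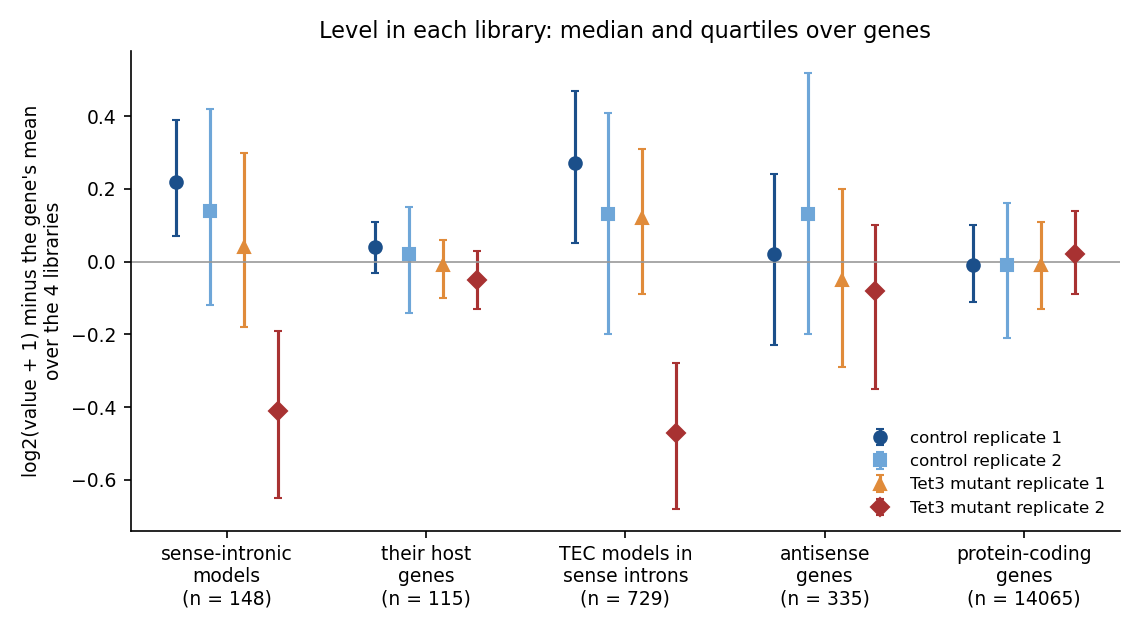
Level of each gene in each library on the log2(value + 1) scale, relative to that gene's mean over the 4 libraries (vertical axis), for 5 sets of genes. Points are medians and bars run from the lower to the upper quartile over genes; Tet3 mutant replicate 2 lies at -0.41 for the sense-intronic models and at -0.47 for TEC models in sense introns, against -0.05 for the hosts and 0.02 for protein-coding genes.

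Summed levels showed the same order. All models other than Peg13 together gave 6001 and 6044 normalized counts in the controls, 5135 in Tet3 mutant replicate 1 and 3812 in Tet3 mutant replicate 2. The mutant sums were 85.3% and 63.3% of the control mean. The 90 models with a mean under 10, which were not tested, summed to 521 and 612 in the controls and to 421 and 333 in the mutants, and 66 of them had the lower mean in the mutants, 20 the higher and 4 an equal one. The sums of the host genes were far closer together, at 95.3% and 93.2% of the control mean in Tet3 mutant replicates 1 and 2.

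Each model was then set against its own host, which was measured in the same libraries. In 143 pairs with both members tested, the median log2 fold change was -0.40 for the models and -0.03 for the hosts. The model's change less the host's had a median of -0.36, with quartiles of -0.52 and -0.08, and was below 0 in 118 pairs and above 0 in 25. Model and host were both lower in the mutants in 85 pairs, and in 36 pairs the model was lower while the host was higher. The reverse, a higher model in a lower host, occurred in 2 pairs. Across pairs, which share libraries and in part share hosts, the changes of model and host had a Pearson's r of 0.47 and a Spearman's rho of 0.50, given as a description. With 1 value per host, the median difference over 115 hosts was -0.35, and 96 hosts were below 0.

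The ratio of model to host separated the libraries in the same way. The median log2 ratio was -4.79 and -4.84 in control replicates 1 and 2, -4.92 in Tet3 mutant replicate 1 and -5.54 in Tet3 mutant replicate 2. The ratio was lowest in Tet3 mutant replicate 2 in 94 of 143 pairs, in control replicate 2 in 23, in Tet3 mutant replicate 1 in 19 and in control replicate 1 in 7. Leaving out Tet3 mutant replicate 2 gave a median difference between model and host of -0.13, and leaving out Tet3 mutant replicate 1 gave -0.56. Without control replicate 1 or 2 it was -0.31 or -0.36.

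**Figure D3:**
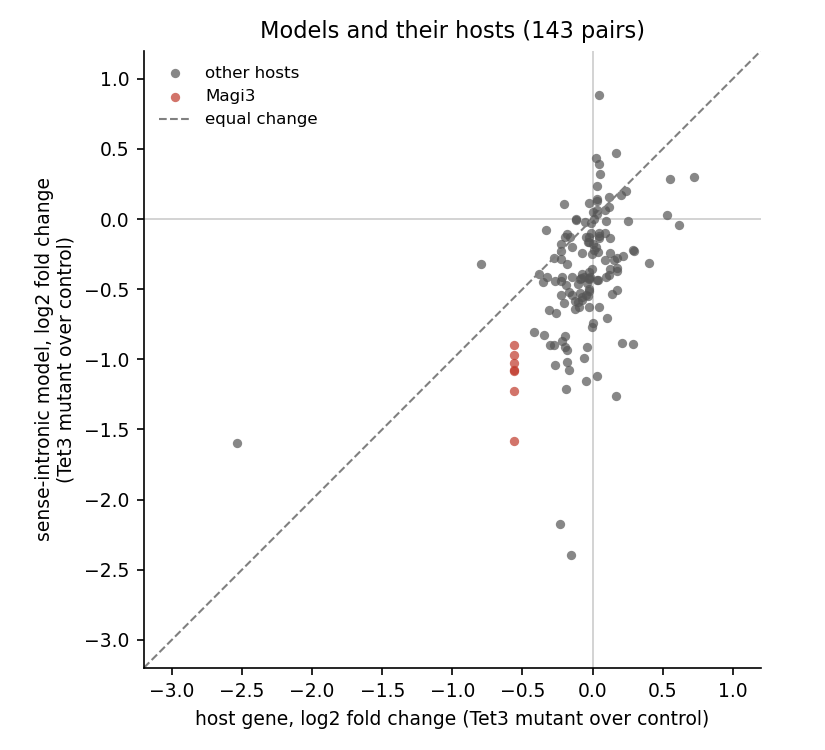
Log2 fold change of each sense-intronic model (vertical axis) against that of its host gene (horizontal axis), each taken between mutant and control as the difference of mean log2(value + 1), for 143 pairs, with models inside Magi3 in red. Points below the dashed line, 118 of 143, are models with a lower fold change than their host.

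The models with the smallest p were examined one by one, and all 7 were lower in both mutant libraries. Gm43707 (chromosome 3, 144493986 to 144497172) lies in the first intron of Hs2st1, which encodes a heparan sulfate 2-O-sulfotransferase. It had 32 and 38 normalized counts in the controls and 15 and 14 in the mutants, or 35.0 ± 4.24 and 14.5 ± 0.71 (SD, n = 2). The log2 fold change was -1.21 ± 0.37 (SE; limma, adjusted p = 0.681, unadjusted p = 0.0211), and Hs2st1 itself had a log2 fold change of -0.19. Without Tet3 mutant replicate 2 the value for Gm43707 was -1.16. B930095G15Rik (chromosome 14, 121248706 to 121253971), in intron 13 of Farp1, a gene for a guanine nucleotide exchange factor, was the most abundant of the 7. It had 257 and 251 in the controls and 189 and 139 in the mutants, a log2 fold change of -0.64 ± 0.21 (SE; limma, adjusted p = 0.681, unadjusted p = 0.0255), against -0.13 for Farp1. Here the mutant libraries differed from each other, and the value was -0.42 without Tet3 mutant replicate 2.

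Gm48086 (chromosome 10, 61446902 to 61450717) lies in the first intron of Eif4ebp2, a repressor of translation initiation. It had 80 and 74 normalized counts in the controls and 52 and 40 in the mutants, a log2 fold change of -0.74 (limma, adjusted p = 0.681, unadjusted p = 0.0466). Eif4ebp2 had 1108 and 1044 in the controls and 1028 and 1126 in the mutants, so the host overlapped between genotypes where the model did not. Gm26978 (chromosome 8, 33884774 to 33885747) lies in the first intron of Rbpms, which encodes an RNA-binding protein of smooth muscle. It had 37 and 29 in the controls and 14 and 17 in the mutants, a log2 fold change of -1.04 (limma, adjusted p = 0.681, unadjusted p = 0.0415) against -0.27 for the host. The value was -1.17 without Tet3 mutant replicate 2. The remaining 3 of the 7 models lie in Magi3. Among the models of next smallest p, Gm15634 in Cfap97 had 8 and 36 in the controls and 1 and 5 in the mutants. Its large log2 fold change of -2.40 ± 0.95 (SE) rested on single libraries. The change was -1.38 without control replicate 2 and -1.60 without Tet3 mutant replicate 1, whose value of 1 lies under the floor of 3. With a pseudocount of 8 it was -1.29.

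**Figure D4:**
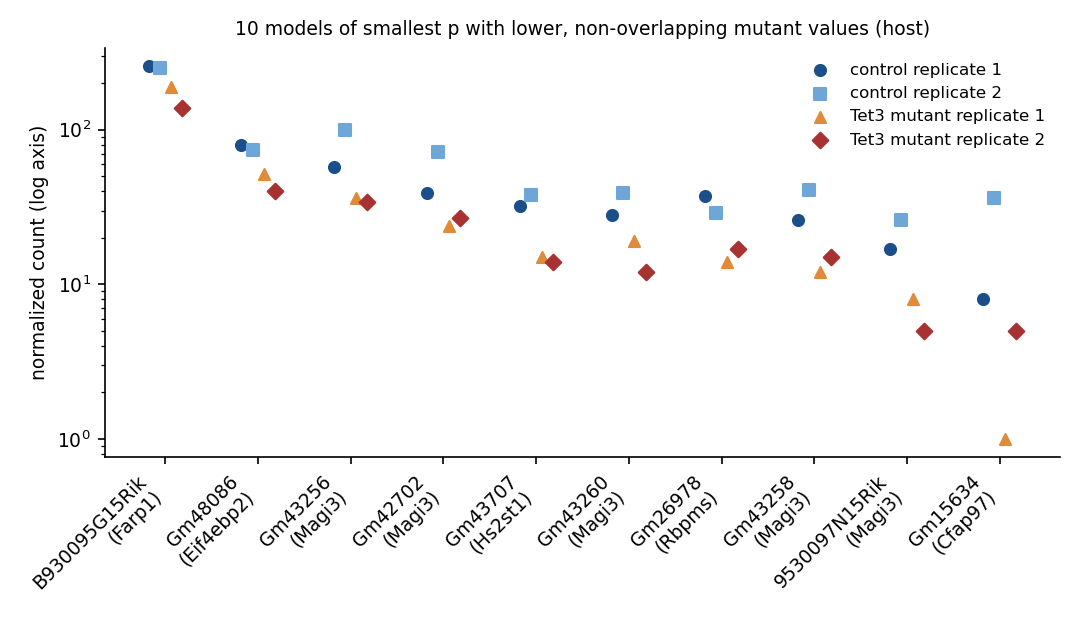
Normalized counts in each library (vertical log axis) of the 10 models of smallest p among those with both mutant values below both control values, with the host gene in parentheses (horizontal axis). In 5 of the 10 the host is Magi3, and control replicate 2 is the highest library in each of those 5.

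Magi3, which encodes a scaffold protein of cell junctions, held more models than any other host, and they were lower as a group. Its 11 models lie between 30181 and 162233 bases downstream of its start (chromosome 3, 104013259 to 104220374). All 7 that were tested were lower in the mutants, at a median of -1.08 on the log2 scale and a range from -1.58 to -0.90. The 11 models summed to 238 and 362 normalized counts in the controls and to 136 and 135 in the mutants. The 2 mutant libraries were thus alike, and the median was -1.11 without Tet3 mutant replicate 2 and -0.85 without control replicate 2. Magi3 itself had 1300 and 1892 in the controls and 1034 and 1095 in the mutants, a log2 fold change of -0.56 ± 0.20 (SE; limma, adjusted p = 0.681, unadjusted p = 0.0354). Control replicate 2 was the highest library both for the sum of the models and for the host.

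Within Magi3, Gm43256 was the most abundant model, with 57 and 99 normalized counts in the controls and 36 and 34 in the mutants and a log2 fold change of -1.08 (limma, adjusted p = 0.681, unadjusted p = 0.0314). That value was -0.69 without control replicate 2 and -1.47 without control replicate 1. 9530097N15Rik had 17 and 26 against 8 and 5, and its log2 fold change of -1.58 was the lowest in this host, at -1.29 without control replicate 2. Gm43258 had 26 and 41 against 12 and 15, with a log2 fold change of -1.22, or -0.90 without control replicate 2. Gm42702, with 39 and 72 against 24 and 27, and Gm43260, with 28 and 39 against 19 and 12, did not overlap between genotypes either. Without control replicate 2 they were at -0.60 and -0.85 on the log2 scale, against -1.03 and -1.08 with all libraries. Gm43259 had 34 in both controls and 15 and 21 in the mutants. The models of one host share its transcription and are not independent observations, and with Magi3 set aside the median over the remaining 141 models was -0.37.

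**Figure D5:**
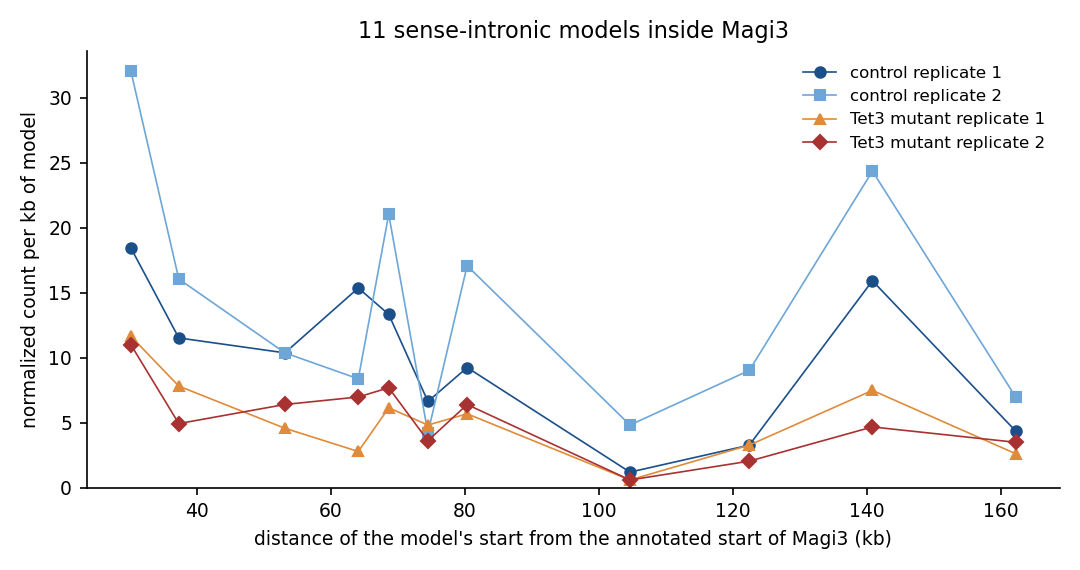
Normalized counts per kilobase of model (vertical axis) in each library for the 11 sense-intronic models of Magi3, by the distance of the model's start from the annotated start of Magi3 in kilobases (horizontal axis). The mutant libraries lie below control replicate 1 over most of the gene; the 11 models summed to 238 and 362 normalized counts in the controls and 136 and 135 in the mutants.

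Among the other hosts with at least 3 models, the median changes were smaller. Cdk14, a cyclin-dependent kinase gene, held 7 models whose median change was 0.06 on the log2 scale, and 2 of the 7 were below 0. The sign depended on single libraries, with -0.27 without control replicate 2, -0.25 without the first mutant library and 0.29 without the second mutant library. Their sums were 225 and 166 normalized counts in the controls and 226 and 158 in the mutants, so that the 2 libraries of each genotype differed more than the genotypes did. One of them, Gm43113, had 24 and 16 in the controls and 8 and 9 in the mutants, while Gm10484, the most abundant, had 68 and 33 against 73 and 43. The 4 models of Rap1a, a small GTPase gene, had a median of -0.36 where the host had 0.18, and their sums were 278 and 260 in the controls, 259 in Tet3 mutant replicate 1 and 165 in Tet3 mutant replicate 2. Without the last library their median was -0.01, and without Tet3 mutant replicate 1 it was -0.70. Gm43328, the most abundant of these, had 96 and 115 against 100 and 68. The 4 models of Man1a2, a Golgi mannosidase gene, had a median of -0.13, which was -0.41 without control replicate 2, -0.42 without Tet3 mutant replicate 1 and -0.08 without control replicate 1. The 3 models of Lrig2 had a median of -0.22 beside the host's -0.23, and their median ran from -0.45 without control replicate 2 to -0.09 without Tet3 mutant replicate 2. Of the 3 models of Snx27, a sorting nexin gene, 1 was tested, at -0.59.

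Higher levels in the mutants were rare. The 2 tested models with both mutant values above both control values were Gm36988 and Gm44982. Gm36988, in intron 2 of Frmd4a, had 9 and 6 normalized counts in the controls and 16 and 13 in the mutants, a log2 fold change of 0.88 ± 0.49 (SE; limma, unadjusted p = 0.128). Gm44982, in intron 8 of the acyl-CoA dehydrogenase gene Acadsb, had 16 and 13 against 22 and 18, a log2 fold change of 0.44 ± 0.41. Neither passed the unadjusted threshold, and their hosts had log2 fold changes of 0.05 and 0.02.

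The study lists genes that it calls spuriously transcribed without Tet3, a list it chose in part on these libraries and which is therefore not independent evidence. Hosts on that list held 9 models, of which 4 were tested, with a median log2 fold change of -0.16. This value rested on single libraries: it was 0.04 without Tet3 mutant replicate 2 and -0.47 without either control replicate 1 or Tet3 mutant replicate 1. The best measured was Gm44699, in the first intron of Actn4, the gene of an actin-crosslinking α-actinin, with 66 and 78 normalized counts in the controls and 49 and 46 in the mutants and a log2 fold change of -0.59 (limma, unadjusted p = 0.0811). Gm8378 in Ston2 had 16 and 17 against 21 and 8, Gm15902 in Stxbp6 had 9 and 21 against 17 and 11, and Gm50132 in Entpd1 had 12 and 9 against 9 and 12. These 3 models overlapped between genotypes, and an exon of Gm16876 lies over Gm8378 on the opposite strand. The 5 not tested were Gm43017 in Fam133b, Gm16540 in 4933434E20Rik, Gm28320 in Tmeff2, Gm12701 in Ror1 and Gm11722 in Psmd12, and no value of theirs was above 10. Actn4 was the only gene of a contractile list that hosted a model, and of the 36 genes of that list 11 were higher and 1 was lower in the mutants at an unadjusted limma p under 0.05, against 3.83% and 2.85% of all genes, and 0 passed the adjusted threshold. No model lay in Tet1, Tet2 or Tet3.

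The lower values were spread over models of different structure with all 4 libraries, but less evenly without Tet3 mutant replicate 2. The median log2 fold change was -0.36 for 84 models of 1 exon and -0.41 for 64 models of 2 or more exons, and -0.18 and -0.09 without that library. For 51 models in the first intron it was -0.41, or -0.34 without that library, and for 96 in later introns it was -0.38, or -0.09 without it. The first-intron group included Gm43256, Gm43258, Gm43259, Gm43260 and Gm42702 of Magi3, which are not independent of each other. Introns were also split by length into 3 nearly equal groups. The median was -0.28 for 50 models in the shortest group and -0.42 for 49 in the middle one, or -0.19 and -0.31 without that library. For the 48 models in the longest group it turned from -0.39 to 0.09. It was -0.32 for 61 models with a mean from 10 to 20 normalized counts, -0.42 for 60 with a mean from 20 to 50 and -0.35 for 27 with a mean of at least 50, and without that library -0.19, -0.21 and -0.08. It was -0.39 for 68 models without CpG in the first 100 bases, -0.41 for 61 with 1 or 2 CpG and -0.32 for 19 with at least 3. Without that library these were -0.13, -0.09 and -0.32. With AATAAA near the end it was -0.30 for 38 models and without it -0.41 for 110, and these became -0.09 and -0.15. For 132 models that overlapped no exon of another gene it was -0.40, and -0.12 without that library. No test was made between these subsets.

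With all 4 libraries, the class with the nearest median was TEC, provisional transcript models that still await experimental testing. The median log2 fold change was -0.34 over 973 TEC models, with 80.8% below 0, and it was -0.08 without Tet3 mutant replicate 2. For the 729 TEC models that lie in an intron on the sense strand it was -0.37, and Tet3 mutant replicate 2 was the lowest library in 68.6% of them. For 129 TEC models outside protein-coding genes it was -0.20. The median was -0.19 for 335 antisense genes, -0.08 for 308 lincRNA genes and 0.01 for 14065 protein-coding genes. Without Tet3 mutant replicate 2 these medians were -0.14, 0 and 0, so that antisense genes then had the same median as the sense-intronic models, -0.14. That library was the lowest in 26.3% of antisense genes. TEC models also resembled the sense-intronic models in sequence, with a mean of 1.59 CpG in the first 100 bases.

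Genes that act on intronic RNA, and a list of non-coding RNAs, most of which stay in the nucleus, were examined alongside. Of 31 tested genes for nuclear RNA decay and intronic termination, such as the exosome subunits, 0 were higher and 0 lower at an unadjusted p under 0.05 by limma, against 3.83% and 2.85% of all genes, and the median log2 fold change was -0.07. The listed non-coding RNAs summed to 11188 and 12764 normalized counts in the controls, 13355 in Tet3 mutant replicate 1 and 9168 in Tet3 mutant replicate 2. Malat1 had 5552 and 6132 in the controls and 6237 and 5063 in the mutants. Neat1, which builds the paraspeckles, had 2766 and 3965 against 3848 and 2194. Kcnq1ot1, an imprinted antisense RNA, had 2372 and 2140 against 2585 and 1482. Gas5 had 320 and 270 against 351 and 244. These 4 were lowest in Tet3 mutant replicate 2, the library in which most sense-intronic models were lowest. Of the 2 others in the table, Meg3 was lowest in control replicate 1, with 174 and 240 against 323 and 181, and Miat, with 4 and 17 against 11 and 4, was equally low in control replicate 1 and Tet3 mutant replicate 2. The part of this library's RNA composition in the result was not tested.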

How the data were processed

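Total RNA from sorted lung smooth muscle cells was depleted of ribosomal RNA, made into stranded libraries and sequenced single-end by the authors. Per their methods and processing notes, trimming used Trimmomatic 0.36, alignment to GRCm38 (mm10) used STAR 2.6.0c, and exon counts per gene came from featureCounts (Subread 1.6.0), leaving out reads assigned to several genes. The strand setting is not given in the sources used here. The deposited values are a score: counts that the authors normalized with DESeq2 and rounded to integers, so no test for raw counts was run.

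The genotype label of each library gave its group, 2 control and 2 Tet3 mutant. Hosts were genes on the same strand that span the whole model in GENCODE vM21 (GRCm38), which held 237 of 238 models at the same coordinates, a protein-coding host being preferred and then the longest. The level per kilobase was the mean normalized count divided by the summed exon length. Sequences came from the longest annotated transcript, so windows run along the spliced RNA. Sequence before the start was not analysed here.

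All 16659 genes with a mean of at least 10 were fitted on log2(value + 1) by the linear models of limma (version 3.58.1, under R 4.3.3), moderated with eBayes along the mean-variance trend, and p-values were adjusted over all of them by the Benjamini-Hochberg method at 0.05. Standard errors are those of the fit. The scripts were tested on simulated data. With 2 against 2 libraries, an exact permutation test cannot go below 0.333. Reads per library were estimated from the scaling factors that the low values imply, and values up to a floor of 3 are not told apart from 0 by counting error, which is the only error the floor covers.

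The models named were the 10 of highest mean, up to 10 per direction of smallest p with groups that do not overlap, those with a host on the contractile or spuriously transcribed list, and those sharing a host with at least 2 others. Gm43566 was named after its values were seen. The models and gene lists were chosen with earlier results of these data known. Alternatives were a pseudocount of 0.5 or 8, a minimum mean of 1 or 50, scaling by the trimmed mean of M values, equal totals, no trend, a replicate block, protein-coding hosts only, models over no other exon, and each library left out. One value per host and models outside Magi3 were added after seeing the data. The columns of single libraries that were not used numbered 0.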

Additional observations from a re-analysis of the deposited data

How the results depend on the processing

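No adjusted call was made under any of the alternatives run, and the median log2 fold change of the models kept its sign under each. It ran from -0.61 to -0.14 with each library left out, and the median of model minus host ran from -0.56 to -0.13. Both ends were set by the mutant libraries, the values nearest 0 coming without Tet3 mutant replicate 2. At an unadjusted p under 0.05 by limma, 7 models were lower as reported and 18 in the fit with no trend. Lowering the minimum mean to 1 gave 15 lower models of 238 tested, and raising it to 50 gave 2 of 27. Higher models numbered 0 as reported and 1 in the fit with no trend. Over all genes, the share at this threshold in either direction was 6.68% as reported and 6.83% in the fit with no trend. It was 6.12% and 6.85% at a minimum mean of 1 and 50. Unadjusted counts are not given for fits with a library left out, which leave 1 library in a group. The replicate numbers were not shown to pair the libraries. Over 16659 genes, the deviations of the libraries numbered 1 from their group means had a Pearson's r of 0.13. With 2 libraries per group, the deviations of those numbered 2 are the same with opposite sign and add nothing. The fit with the replicate block gave 9 lower and 0 higher models of 148 at an unadjusted p under 0.05 by limma. In that fit 9.83% of all genes met this threshold in either direction. It gave 0 adjusted calls and a median of -0.39.

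Equal library totals moved the median over all genes to 0.04 and that of the models to -0.35, and turned Gm42664 to 0.02 and Gm15902 to 0.03. Of 45 named models tested, 27 kept their direction under all alternatives run. Gm50132 had a fold change of 0 as reported and ran from -0.19 to 0.19 with each library left out. With each library left out, the log2 fold change ran from -0.33 to 0.64 for Gm10855, -0.43 to 0.38 for Gm42664, -0.26 to 0.07 for Gm43445, -0.38 to 0.05 for Gm47644, -0.21 to 0.01 for Gm43462, -0.27 to 0.75 for Gm10484, -0.60 to 0.04 for Gm43329, -0.79 to 0.05 for Gm43330, -0.08 to 0.34 for Gm43727, -0.62 to 0.38 for Gm42869, -0.41 to 0.49 for Gm43111, -0.27 to 0.39 for Gm43728, -0.45 to 0.09 for 4930509H03Rik, -0.55 to 0.27 for Gm43463, -0.96 to 0.33 for Gm8378, -0.58 to 0.56 for Gm15902 and 0 to 0.28 for Gm43577. The cause of these changes was not tested. Where a library was left out, the lone library of its group was assumed to vary like the other group. Depth limits the models of low level most, and 90 of 238 had a mean under 10 normalized counts.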
